A study of Mus musculus with 6 samples.

Results

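Gbx2, Tcf7l2, Lhx9, Irx1, Irx3, Pou4f1, Otp, Barhl2, En2 and Pax2, 10 transcription factor genes used as regional markers of the thalamus, other parts of the diencephalon and the midbrain, were read in the dorsal telencephalon of mouse embryos after injection of fibroblast growth factor 2 (FGF2). They are 10 of the 37991 genes counted, and were picked by name with earlier results of these data known, so their own levels are given as a description. The tested embryos were CD1 mice at E13.5 (embryonic day) that had received 100 ng of FGF2 in the telencephalic vesicles, numbered 6, 7 and 8. The embryos they were set against were CD1 mice of that age that had received the vehicle alone, phosphate-buffered saline with 0.1% bovine serum albumin, numbered 7, 8 and 9. Each of the 6 libraries came from total RNA of 1 embryo, taken from formalin-fixed coronal cryosections of the region rostral to the hippocampus. The labels do not say how long after injection the embryos were collected.

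The forebrain is divided early into the telencephalon, which forms the cortex and basal ganglia, and the diencephalon behind it, which forms the thalamus, habenula, prethalamus and pretectum. Homeodomain and related transcription factors mark these territories: Gbx2, Tcf7l2 and Lhx9 mark developing thalamic neurons, Pou4f1 the habenula, Irx1 and Irx3 the Iroquois territory caudal to the zona limitans, Otp the hypothalamus, and En2 and Pax2 the midbrain and the isthmus, its border with the hindbrain. Most of these genes have further sites of expression. Tcf7l2 acts at the end of the Wnt pathway in many progenitor cells, and Lhx9, Barhl2 and Irx genes are also known from other neural tissues, so reads of a member do not by themselves place a cell in the diencephalon.

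The promoters of the 3 members whose level differed past the threshold used below are shown, from RefSeq (GRCm38.p6), as 300 bases that run 5′ to 3′ from 250 before to 50 after the start, with every CG pair in capitals. Gbx2 lies at chr1:89931127-89931426 on the minus strand, Barhl2 at chr5:106458117-106458416 on the minus strand, and the first start of Tcf7l2 at chr19:55741560-55741859 on the plus strand.
Gbx2: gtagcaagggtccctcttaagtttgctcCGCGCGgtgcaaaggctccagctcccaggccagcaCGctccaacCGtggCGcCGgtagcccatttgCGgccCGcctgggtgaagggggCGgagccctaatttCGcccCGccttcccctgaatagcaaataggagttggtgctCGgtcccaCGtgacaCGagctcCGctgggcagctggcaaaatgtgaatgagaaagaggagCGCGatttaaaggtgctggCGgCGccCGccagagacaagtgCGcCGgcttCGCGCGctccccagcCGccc
Tcf7l2: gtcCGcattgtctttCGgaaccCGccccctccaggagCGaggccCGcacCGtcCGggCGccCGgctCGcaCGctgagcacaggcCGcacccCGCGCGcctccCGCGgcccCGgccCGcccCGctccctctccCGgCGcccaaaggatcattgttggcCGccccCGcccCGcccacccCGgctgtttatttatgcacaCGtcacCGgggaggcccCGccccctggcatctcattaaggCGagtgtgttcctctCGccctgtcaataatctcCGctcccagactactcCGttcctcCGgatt
Barhl2: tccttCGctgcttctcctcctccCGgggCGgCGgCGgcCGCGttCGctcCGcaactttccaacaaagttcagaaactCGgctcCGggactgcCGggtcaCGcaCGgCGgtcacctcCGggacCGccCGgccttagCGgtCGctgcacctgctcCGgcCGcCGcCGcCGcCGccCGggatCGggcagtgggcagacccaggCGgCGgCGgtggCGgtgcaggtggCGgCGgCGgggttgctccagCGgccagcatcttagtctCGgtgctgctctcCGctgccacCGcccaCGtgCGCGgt
CG pairs numbered 27 in the Gbx2 window, 34 in that of Tcf7l2 and 42 in that of Barhl2, against a median of 7 over all 32851 promoters in the table. The table held 11 promoters for 8 of the 10 members, with from 6 CG pairs, for Lhx9, to 57, for Pou4f1. The second start of Tcf7l2 and 1 of the 3 of Pax2 had 7, the median. CTTTGAT, the core letters bound by the Tcf7l2 family, searched on both strands, was in 0 of these 11 windows and in 3.73% of all promoters. The homeodomain core TAATTA, which reads the same on both strands, was in 0 of the 11 and in 5.29% of all promoters. The palindrome CACGTG was in 2 of the 11, those of Gbx2 and Barhl2, and in 7.15% of all.

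Thalamic Gbx2 and Tcf7l2 and the neuronal factor Barhl2 were higher in FGF2 embryos, Pax2 and Pou4f1 were higher in every FGF2 embryo than in any vehicle embryo but did not pass the threshold, and Otp and En2 had 8 and 28 reads over all 6 embryos. The mean CPM, a read count scaled to library size, was higher in FGF2 embryos for all 10 members. Past a filter on low counts, 8 members were tested with edgeR's quasi-likelihood test over all 21983 genes kept, and 3 of them, Gbx2, Tcf7l2 and Barhl2, had a Benjamini-Hochberg adjusted p under 0.05, which is what "called" means here. Over all genes tested 3.63% were called, 2.68% as higher and 0.951% as lower in FGF2 embryos, and since the members were picked with results known nothing is read from that contrast. In 6 of the 10 members every FGF2 embryo had a higher CPM than every vehicle embryo, a pattern shown by 14.6% of all genes tested. Gbx2 and Pax2 passed the filter only with the help of the FGF2 embryos, where they are high, so no median over the tested members is given. In bulk RNA of this kind, a change in how many cells of a type were in the sections and a change in the RNA per cell cannot be told apart.

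**Figure D1:**
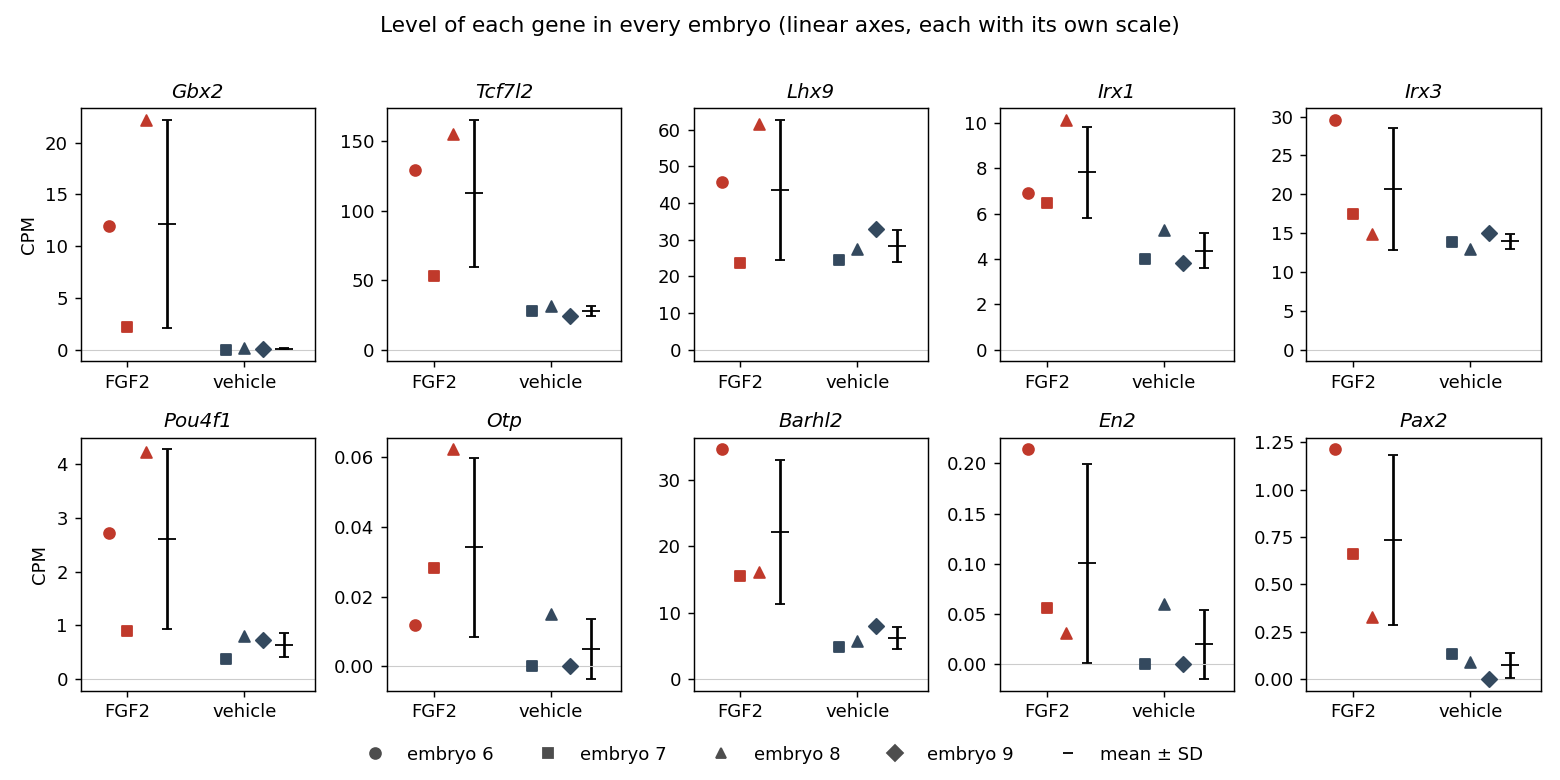
CPM of each of the 10 genes (linear axes, each panel with its own scale starting at or just below 0) in the 3 FGF2 embryos on the left and the 3 vehicle embryos on the right of each panel, with the mean and SD beside the points. Gbx2 lies near 0 in every vehicle embryo, while Lhx9 and Irx3 have FGF2 embryos inside or below the vehicle range.

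Gbx2, a homeodomain factor needed for thalamic neurons and for the position of the isthmus, lies at chromosome 1, bases 91824537 to 91829865 of NCBIM37. It had 1009, 152 and 1429 reads in FGF2 embryos 6, 7 and 8, against 0, 12 and 4 reads in vehicle embryos 7, 8 and 9. These counts correspond to 11.99, 2.14 and 22.2 CPM in FGF2 embryos and to 0, 0.180 and 0.0635 CPM in vehicle embryos. The groups were far apart, the lowest FGF2 embryo being 11.9 times the highest vehicle embryo, yet the FGF2 embryos themselves spanned 10.4-fold. The log2 fold change was 7.16 ± 1.18 (SE), with few vehicle reads to set its size. In the FGF2 embryos the reads covered 70.2% to 92.1% of the 5329 bases of the gene's span. The transcript D130058E05Rik lies inside that span. Reads counted over its stretch, 300, 60 and 454 in FGF2 embryos and 0, 6 and 2 in vehicle embryos, are also counted for Gbx2. The counts do not tell which transcript these reads came from.

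Tcf7l2, a transcription factor through which Wnt signals act and a marker of thalamic and habenular neurons, lies at chromosome 19, bases 55816300 to 56008144. It had 129, 53.2 and 155 CPM in FGF2 embryos 6, 7 and 8, against 28.1, 31.5 and 24.3 CPM in vehicle embryos 7, 8 and 9. All vehicle embryos held substantial reads, so the difference was one of level and not of presence. The FGF2 mean was 113 ± 53.0 CPM and the vehicle mean 28.0 ± 3.61 CPM (SD, n = 3 each), a log2 fold change of 2.01 ± 0.37 (SE). The spread among FGF2 embryos, 2.92-fold from lowest to highest, exceeded that among vehicle embryos, 1.30-fold. The alignments spanned from 191755 to 191809 of the 191845 bases in all 6 libraries, introns included.

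Lhx9, a LIM homeodomain factor of thalamic and other caudal forebrain neurons, had 45.7, 23.5 and 61.6 CPM in FGF2 embryos, against 24.4, 27.5 and 33.0 CPM in vehicle embryos. The groups overlapped, since FGF2 embryo 7 was below all vehicle embryos. The log2 fold change was 0.62 ± 0.32 (SE) and the gene was not called.

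Pou4f1, also known as Brn3a, a POU factor of habenular and sensory neurons, had 2.71, 0.888 and 4.21 CPM in FGF2 embryos, against 0.376, 0.793 and 0.730 CPM in vehicle embryos. The groups did not overlap, but FGF2 embryo 7 exceeded the highest vehicle embryo only 1.12-fold. The log2 fold change was 2.03 ± 0.56 (SE), as large as that of Tcf7l2 from far fewer reads, and it was not called. Barhl2, a homeodomain factor of diencephalic and other neurons and of the territory around the zona limitans, had 34.6, 15.6 and 16.2 CPM in FGF2 embryos, against 4.89, 5.69 and 8.06 CPM in vehicle embryos. Every FGF2 embryo had at least 1.93 times the highest vehicle level. The means were 22.1 ± 10.8 CPM in FGF2 embryos and 6.21 ± 1.65 CPM in vehicle embryos (SD, n = 3 each), a log2 fold change of 1.83 ± 0.35 (SE). Barhl2 is at chromosome 5, bases 106881533 to 106887469, and its span overlaps no other gene.

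The Iroquois genes encode TALE homeodomain factors that pattern the neural tube along and across its axis. Irx1 had 6.91, 6.46 and 10.1 CPM in FGF2 embryos, against 3.99, 5.28 and 3.84 CPM in vehicle embryos. The groups were apart by 1.22-fold at the closest, and the log2 fold change of 0.84 ± 0.22 (SE) was not called. Irx3, of another Iroquois cluster, had 29.6, 17.5 and 14.85 CPM in FGF2 embryos, against 13.9, 13.0 and 14.95 CPM in vehicle embryos. FGF2 embryo 6 stood furthest above the vehicle embryos and FGF2 embryo 7 was also above them all, while FGF2 embryo 8 fell below vehicle embryo 9. The log2 fold change of 0.57 ± 0.24 (SE) was not called. Part of the Irx3 span is shared with D230002A01Rik, which had 1031, 503 and 342 reads in FGF2 embryos and 348, 394 and 430 reads in vehicle embryos.

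Pax2, a paired-box factor of the isthmus and midbrain that is also made in the optic stalk, had 102, 47 and 21 reads in FGF2 embryos 6, 7 and 8, against 8, 6 and 0 reads in vehicle embryos 7, 8 and 9. In CPM these were 1.21, 0.663 and 0.327 in FGF2 embryos and 0.131, 0.0898 and 0 in vehicle embryos. The groups did not overlap at a level that was low throughout, and the log2 fold change of 3.30 ± 0.84 (SE) was not called. Inside its span, Gm20395 had 0, 2 and 0 reads in FGF2 embryos and 0, 4 and 0 in vehicle embryos, and 1700039E22Rik had 2, 3 and 4 in FGF2 embryos and 0 in each vehicle embryo. The lengths spanned by the alignments differed as well: 22066, 33567 and 8860 bases of the 82220-base span were covered in FGF2 embryos, more than their reads would cover end to end at 76 bases each (7752, 3572 and 1596 bases). In vehicle embryos 7 and 8 the reads covered 302 and 237 bases, which is less than end to end. Alignments that bridge long gaps, as spliced ones do, were therefore among the Pax2 reads of all 3 FGF2 embryos, and the coverage of vehicle embryos needs none.

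En2, an Engrailed homeodomain factor of the midbrain and cerebellar territory, had 18, 4 and 2 reads in FGF2 embryos, against 0, 4 and 0 reads in vehicle embryos. Otp, the Orthopedia homeodomain factor of hypothalamic neuroendocrine cells, had 1, 2 and 4 reads in FGF2 embryos, against 0, 1 and 0 reads in vehicle embryos. Both fell below the low-count filter and were not tested, and their groups overlapped in CPM. The highest levels were 0.214 CPM for En2, in FGF2 embryo 6, and 0.0622 CPM for Otp, in FGF2 embryo 8.

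Levels can be set against each other between genes only per length, for which the authors' RPKM values (reads scaled for gene model length and library) were used. In FGF2 embryos the mean RPKM was 11.2 ± 5.72 for Tcf7l2, 8.29 ± 4.09 for Barhl2, 7.23 ± 2.89 for Irx3, 5.10 ± 2.35 for Lhx9, 3.59 ± 0.887 for Irx1 and 3.13 ± 2.55 for Gbx2 (SD, n = 3). Each of these 6 overlapped the next in range, so their order is not fixed beyond the spread between embryos. Pou4f1 at 0.617 ± 0.371 overlapped Gbx2 and stood above Pax2 at 0.106 ± 0.0770, which stood above En2 at 0.0176 ± 0.0136. In vehicle embryos the highest member was Irx3 at 4.98 ± 0.617 RPKM, above Lhx9 at 3.22 ± 0.538 and Tcf7l2 at 2.54 ± 0.102 with no overlap between those 3. Barhl2 at 2.26 ± 0.628 overlapped Tcf7l2 and Irx1 at 1.92 ± 0.343, and Pou4f1 at 0.128 ± 0.0650 lay below Irx1 and above Gbx2 at 0.0206 ± 0.0234. Gbx2 thus overlapped Irx1 in FGF2 embryos and the scarcely read Pax2 in vehicle embryos. Otp was listed at 0 RPKM in all 3 vehicle embryos and in FGF2 embryos 6 and 8.

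The members did not vary together over the FGF2 embryos. Gbx2, Tcf7l2, Lhx9, Pou4f1 and Irx1 were all highest in embryo 8, intermediate in embryo 6 and lowest in embryo 7. Irx3, Pax2 and En2 were highest in embryo 6 and lowest in embryo 8. Barhl2 was highest in embryo 6 as well, with embryos 7 and 8 nearly equal. Of the 10 members 6 were highest in embryo 8, 4 in embryo 6 and 0 in embryo 7. FGF2 embryo 8 also had the lowest sample quality weight in limma's voom fit, 0.233 against 0.812 to 2.01 in the other libraries. How far that library's quality bears on these levels was not tested. The summed CPM of the 10 genes was 262, 120 and 285 in FGF2 embryos 6, 7 and 8, against 75.8, 84.1 and 84.9 in vehicle embryos. Tcf7l2 supplied much of that sum; the rest summed to 133, 66.8 and 130 CPM in FGF2 embryos and to 47.7, 52.6 and 60.6 CPM in vehicle embryos. Over the 6 embryos, log2(CPM + 0.5) of Gbx2 and Tcf7l2 had a Pearson r of 0.994, that of Gbx2 and Irx3 0.58, and that of Lhx9 and Pax2 0.30. These values share the split into 2 groups and the library depths and are given as a description.

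**Figure D2:**
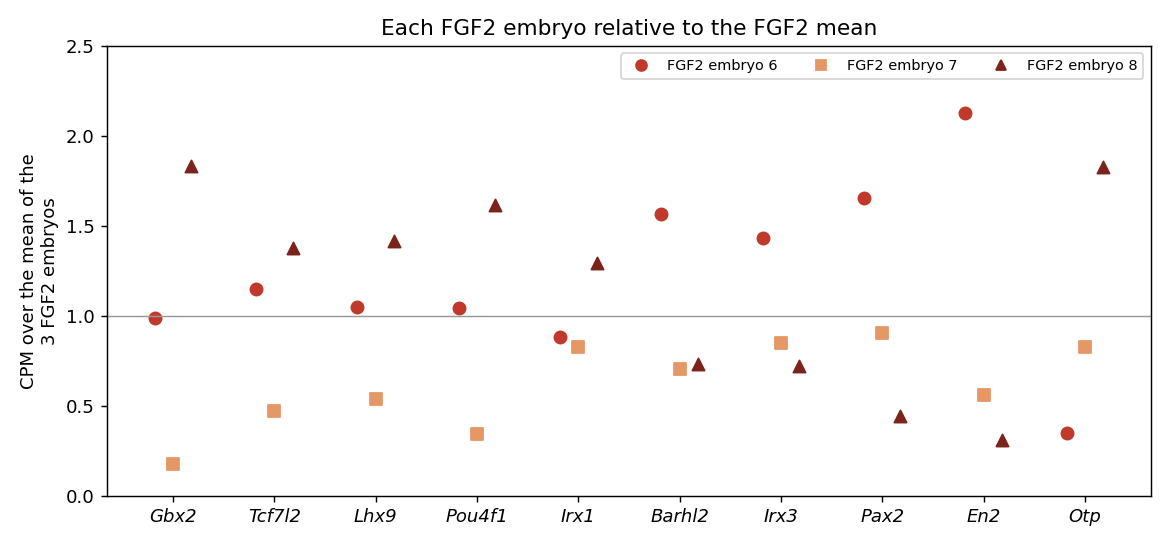
CPM of each FGF2 embryo divided by the mean of the 3 FGF2 embryos (linear axis from 0), for each of the 10 genes. Embryo 8 is on top for Gbx2, Tcf7l2, Lhx9, Pou4f1 and Irx1, and at the bottom for Irx3, Pax2 and En2.

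Out of 13677 named genes whose mean reached 1 CPM, those with the most similar profile over the 6 embryos were chosen by the Pearson r of log2(CPM + 0.5), 3 for each tested member. For both Gbx2 and Tcf7l2 the most alike was H2-Ke6, with r of 0.996 to Gbx2 and 0.998 to Tcf7l2. H2-Ke6 moved far less, however, at 50.8, 40.4 and 52.3 CPM in FGF2 embryos against 32.8, 34.5 and 32.4 CPM in vehicle embryos. Figf and Pyroxd2 came next for Gbx2, and Grik4, a kainate receptor subunit, and Figf for Tcf7l2. St6galnac2, the potassium channel gene Kcnc2 and Magi3 were most like Lhx9, and Clvs2, Fam89a and Ctu2 most like Pou4f1. Vav2, Arhgap26 and Hdac9 were most like Irx1, and Zfp607, Gjd2 and the Wnt inhibitor Dkk2 most like Irx3. Dkk2 had 32.7, 16.2 and 14.5 CPM in FGF2 embryos against 12.2, 13.0 and 13.0 CPM in vehicle embryos, with embryo 6 standing out as it did for Irx3. Filip1l, Gabrq and Sspn were most like Barhl2, and Gusb, Rbpms2 and Mboat1 most like Pax2. No gene on this list is a regional marker of the lists used below.

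The calls of the 3 members depended on which embryos were in the fit. Without any 1 of the vehicle embryos 0 of the 8 tested members were called by edgeR, while 6 had an unadjusted p under 0.05 in each of those 3 fits. Calls over all genes fell in these fits too, to 242, 218 and 307 without vehicle embryos 7, 8 and 9, from 799. With all 6 embryos, 7 of the 8 members and 4242 of the 21983 genes had an unadjusted p under 0.05 (edgeR). Since the members were picked with results known, nothing is read from that contrast. Gbx2 was called without FGF2 embryo 7 (adjusted p = 0.00747, edgeR) and lost in each of the other 5 fits, with adjusted p up to 0.103. Tcf7l2 behaved likewise, with adjusted p of 0.00365 without FGF2 embryo 7 and up to 0.138 otherwise. Barhl2 was lost without FGF2 embryo 8 and without each vehicle embryo, with adjusted p up to 0.155. Pou4f1 was called only without FGF2 embryo 7 (adjusted p = 0.031) and Pax2 only without FGF2 embryo 8 (adjusted p = 0.0345) among the fits that left out an embryo. In each of these fits the fold change stayed above 0 for all 8 genes: it lay between 6.38 and 8.48 on the log2 scale for Gbx2, between 1.71 and 2.34 for Tcf7l2, between 1.35 and 2.06 for Barhl2 and between 2.73 and 3.96 for Pax2. Irx3 and Lhx9 came closest to no change, at 0.21 and 0.29.

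**Figure D3:**
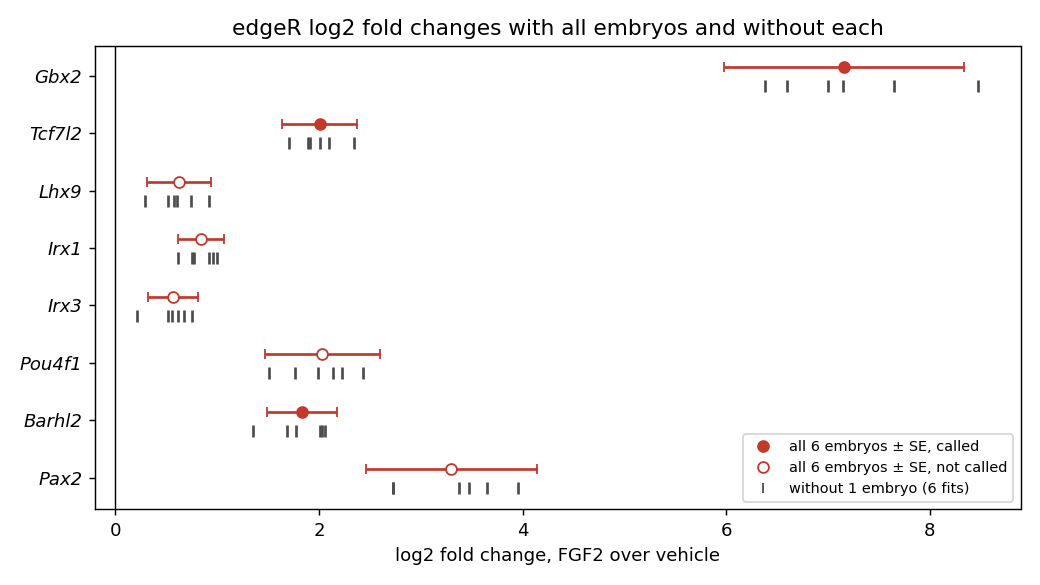
Log2 fold changes of FGF2 over vehicle embryos for the 8 tested genes, as circles with SE from all 6 embryos (filled where called) and as ticks from the 6 fits that each leave out 1 embryo. All ticks lie above 0, and those of Gbx2 run from 6.38 to 8.48.

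Other genes of the same regions were read from lists that were also drawn up with earlier results known. Of 15 paralogues of the members, 12 were tested with edgeR, 0 were called and 4 of the 12 had every FGF2 embryo above every vehicle embryo. At an unadjusted p under 0.05 there were 7 (edgeR): Gbx1, Tcf7, Irx2, Irx5 and Pax5 were higher in FGF2 embryos, Tcf7l1 and Lhx2 lower. Over all genes tested, 4242 of 21983 had such a p. DESeq2 called 4 of 15 paralogues, against 2065 of 29000 genes. Limma's voom called 4 of 12, against 2193 of 21983 genes. The median log2 fold change of the 12 paralogues was 0.29 (edgeR). Without FGF2 embryo 7, 1 was called, without FGF2 embryo 8, 5 were, and in the other 4 such fits 0. En1, the Engrailed gene with measurable reads, had 6.45, 7.15 and 5.22 CPM in FGF2 embryos against 7.33, 6.60 and 6.76 CPM in vehicle embryos. Irx2 had 7.86, 4.54 and 9.69 CPM in FGF2 embryos against 2.49, 3.40 and 3.17 CPM in vehicle embryos (log2 fold change 1.28 ± 0.29 SE, adjusted p = 0.0553, edgeR). Pax5 had 1.14, 1.49 and 1.18 CPM in FGF2 embryos against 0.425, 0.643 and 0.571 CPM in vehicle embryos (adjusted p = 0.0584, edgeR). The paralogues named here were singled out after their values were seen, and none of them passed the threshold in the edgeR fit of all 6 embryos.

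Of 17 other genes of the thalamus, habenula and zona limitans, 15 were tested, of which 6 were higher in FGF2 embryos, 0 lower and 9 not called, with a median log2 fold change of 0.80. Shh, the secreted signal of the zona limitans and of the ventral forebrain, had 2.82, 2.78 and 1.73 CPM in FGF2 embryos against 0, 0 and 0.0317 CPM in vehicle embryos. Its adjusted p was 0.00182 (edgeR), with 545 FGF2 reads against 2 vehicle reads, and it passed the filter only with the help of the FGF2 embryos. Olig3, a basic helix-loop-helix factor of thalamic progenitors, had 20.5, 4.33 and 11.8 CPM in FGF2 embryos against 0.409, 0.359 and 0.222 CPM in vehicle embryos (adjusted p = 0.00629, edgeR). Embryo 7 was again the lowest of the FGF2 embryos, as for Gbx2. Prox1, made in prethalamic and other neurons, had 12.5, 14.1 and 17.5 CPM in FGF2 embryos against 3.60, 4.47 and 3.02 CPM in vehicle embryos (adjusted p = 0.00288, edgeR). Shh, Olig3 and Prox1 were called in every fit that left out an embryo. The list's count ran from 3 to 8 over those fits, and 1 of the 8, without FGF2 embryo 8, was lower. Nkx2-2, a progenitor factor of the thalamus border that was below the filter, was singled out after its values were seen: it had 1.69, 0 and 0.731 CPM in FGF2 embryos and 0 in all 3 vehicle embryos.

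Of 18 other genes of the hypothalamus and prethalamus, 12 were tested, of which 7 were higher in FGF2 embryos, 0 lower and 5 not called, with a median log2 fold change of 1.35. Nkx2-1, a homeodomain factor of both the hypothalamus and the medial ganglionic eminence of the ventral telencephalon, had 58.9, 60.7 and 26.5 CPM in FGF2 embryos against 1.505, 2.06 and 1.33 CPM in vehicle embryos (adjusted p = 0.00158, edgeR). Fezf1, a zinc finger factor of the rostral forebrain, had 14.5, 12.2 and 7.53 CPM in FGF2 embryos against 0.932, 0.464 and 0.381 CPM in vehicle embryos (adjusted p = 0.00247, edgeR). Lhx1, a LIM homeodomain factor, had 11.5, 6.64 and 8.47 CPM in FGF2 embryos against 3.07, 3.20 and 2.83 CPM in vehicle embryos (adjusted p = 0.0112, edgeR). Nkx2-1 and Fezf1 had their lowest FGF2 level in embryo 8, where the thalamic members were highest. The list's count ran from 2 to 11 without 1 embryo, and Lhx1 was lost without each vehicle embryo, with adjusted p up to 0.0666. Six3, Lhx6, Foxd1 and Lhx5, named after their values were seen, were called as well. Each was lost without vehicle embryo 7 and without vehicle embryo 8, among other fits (edgeR adjusted p up to 0.196). Since genes such as Nkx2-1 are also made in the ventral telencephalon, this count does not by itself place cells in the hypothalamus.

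Of 13 other genes of the midbrain and isthmus, 10 were tested, of which 6 were higher in FGF2 embryos, 0 lower and 4 not called, with a median log2 fold change of 3.71. Fgf17, an FGF ligand of the isthmus and of the rostral telencephalic midline, had 35.4, 27.8 and 11.5 CPM in FGF2 embryos against 0.932, 0.479 and 0.667 CPM in vehicle embryos (adjusted p = 0.00259, edgeR). Otx2, a homeodomain factor of the forebrain and midbrain that is also made in choroid plexus, had 74.5, 60.8 and 42.7 CPM in FGF2 embryos against 1.95, 1.94 and 0.444 CPM in vehicle embryos (adjusted p = 0.00394, edgeR). Pax3, a paired-box factor of the dorsal midbrain and neural crest, had 1.83, 3.55 and 2.22 CPM in FGF2 embryos against 0.114, 0.329 and 0.127 CPM in vehicle embryos (adjusted p = 0.0074, edgeR). The other genes of the list, named after their values were seen and given as reads summed over 3 embryos, did not share 1 pattern. Fgf8 (1827 reads in FGF2 embryos against 12 in vehicle embryos), Foxa1 (545 against 14) and Th (946 against 104) were called as well. Fgf8 lost its call without FGF2 embryo 6 or 7 or any vehicle embryo (edgeR adjusted p up to 0.127), Foxa1 without any FGF2 embryo or vehicle embryo 7 or 9 (up to 0.117), and Th without vehicle embryo 7 or 9 (up to 0.0712). Dmbx1 (125 against 8), Pax7 (232 against 22), Lmx1b (2839 against 2964) and Tfap2b were not called. Wnt1 (14 against 2), Foxa2 (8 against 0) and Pitx3 (7 against 4) were below the filter. Of the 10 tested genes, 5 (Fgf8, Dmbx1, Pax3, Pax7 and Foxa1) would not have passed the filter on the vehicle embryos alone, so the filter favours higher genes in this count and median; of the remaining 5 genes 3 were called, all higher. The count for the list ran from 3 to 5 without 1 embryo. Taking the paralogues and these 3 lists as 63 genes, 49 were tested and 19 called, all higher in FGF2 embryos, with a median log2 fold change of 1.14. Of those 49, 9 would not have passed the filter on the vehicle embryos alone, and 14 of the other 40 were called. Without FGF2 embryo 8, 29 of 54 tested genes were called, 28 higher and 1 lower. Without vehicle embryo 7, 9 of 55 were called, all higher.

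**Figure D4:**
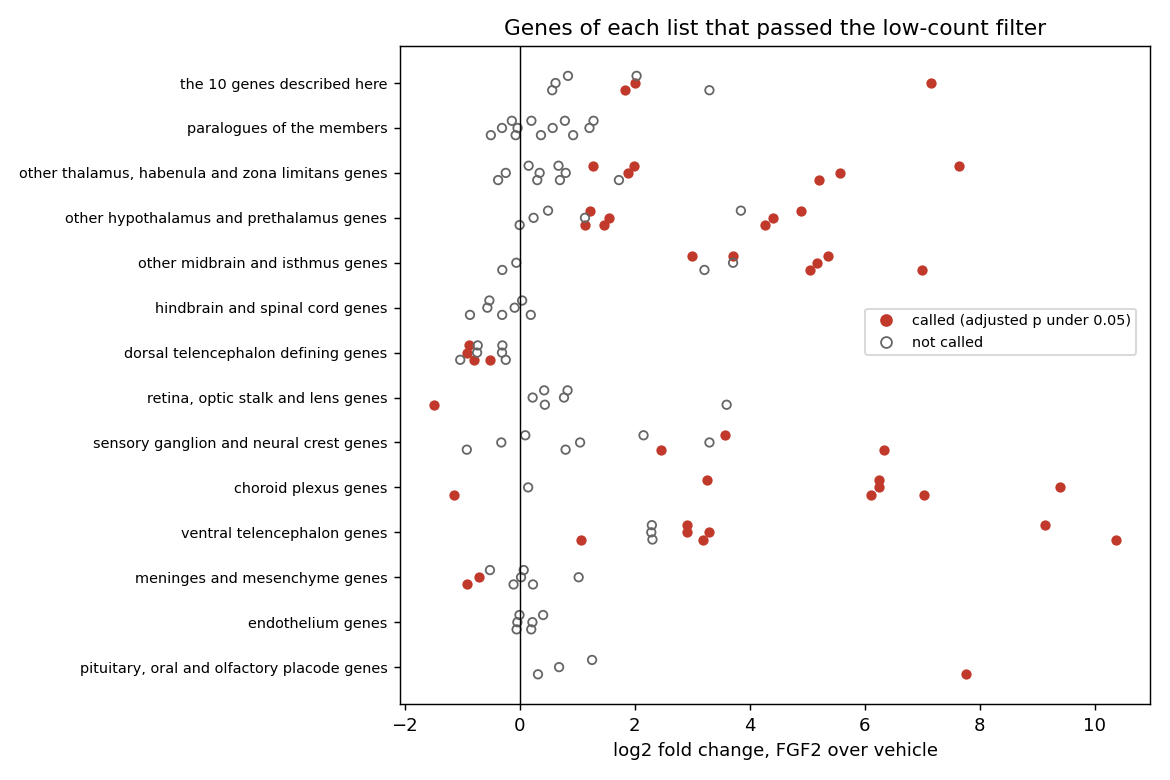
Log2 fold changes of FGF2 over vehicle embryos for every tested gene of each list (rows), with the 8 tested members on top and called genes filled. The paralogues and the hindbrain and endothelium lists hold no called gene, while the thalamic, hypothalamic and midbrain lists hold 6, 7 and 6, all to the right of 0. The rightmost point of the ventral row is Gsx1, whose vehicle reads are 0, so its fitted value is not a measured fold.

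Markers of other tissues that the sections could hold moved as well, and their part in the results above was not tested. Of 10 ventral telencephalon genes, 7 were higher in FGF2 embryos, 0 lower and 3 not called, and their summed level was 502 to 752 CPM in FGF2 embryos against 64.8 to 180 CPM in vehicle embryos. Lhx8, a LIM homeodomain factor of the medial ganglionic eminence, had 2844 reads in the FGF2 embryos together, against 4 in the vehicle embryos. Gad2, an enzyme gene of GABA neurons, had 18948 reads in FGF2 embryos against 1843 in vehicle embryos. Gsx1, a ventral progenitor factor, had 541 reads in FGF2 embryos and 0 in vehicle embryos. Of 8 choroid plexus genes, 6 were higher, including Clic6, Htr2c and Sostdc1, and 1, Aqp1, was lower, and the summed level was 102, 183 and 450 CPM in FGF2 embryos 6, 7 and 8 against 21.4 to 22.2 CPM in vehicle embryos. When 1 embryo was left out, 4 to 10 of the ventral and 3 to 7 of the choroid plexus genes were called. Gad2 was lost without FGF2 embryo 8 (adjusted p = 0.0664, edgeR), Htr2c without vehicle embryo 7 (0.0509) and Sostdc1 without vehicle embryo 8 (0.064), and Aqp1 without FGF2 embryo 7 and without each vehicle embryo (up to 0.182). Ttr, a thyroid hormone carrier, supplied 59.1, 126 and 391.9 CPM of the choroid plexus sum in FGF2 embryos 6, 7 and 8, against 0.0898 to 0.444 CPM in vehicle embryos. Without Ttr the sum was 42.6, 57.2 and 58.0 CPM in FGF2 embryos against 21.0 to 22.1 CPM in vehicle embryos. Aqp1 supplied 19.5, 20.3 and 19.8 CPM of that remainder in vehicle embryos 7, 8 and 9. Leaving out Ttr, Aqp1 and Clic6 gave 10.9, 24.1 and 29.9 CPM in FGF2 embryos against 0.825 to 1.77 CPM in vehicle embryos. Of the 8 choroid plexus genes tested, 6 passed the filter only with the help of the FGF2 embryos, as did 2 of the 10 ventral genes, Gsx1 and Lhx8. The choroid plexus and ventral sums were highest in embryo 8 and lowest in embryo 6, as were the dorsal telencephalon, endothelial, sensory ganglion and hindbrain sums, but single genes departed from that order, Lhx8 with 13.2, 16.7 and 8.49 CPM among them.

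Of 10 sensory ganglion and neural crest genes, 3 were higher (Isl1, which is also made in ventral forebrain neurons, Sox10 and Scn10a), with a summed level of 44.8 to 59.3 CPM in FGF2 embryos against 13.1 to 16.5 CPM in vehicle embryos. Isl1 made most of that difference: without it the list summed to 13.2 to 22.7 CPM in FGF2 embryos against 12.6 to 15.98 CPM in vehicle embryos. Of the 10 genes, 5, Sox10 and Scn10a included, passed the filter only with the help of the FGF2 embryos. Isl1 was called in every fit that left out an embryo, whereas Sox10 and Scn10a were each lost in 5 of those 6 fits (kept for Sox10 only without FGF2 embryo 6 and for Scn10a only without FGF2 embryo 8), with edgeR adjusted p up to 0.141 and 0.163. The 14 hindbrain and spinal cord genes, mostly Hox genes, gave 0 called of 7 tested with a median log2 fold change of -0.30, at a summed 11.1 to 17.8 CPM in FGF2 embryos and 13.8 to 17.1 CPM in vehicle embryos. None of the 7 had an unadjusted p under 0.05, and DESeq2 and voom called 0 as well. Of 10 retina, optic stalk and lens genes, 7 were tested and 1, Rlbp1, was lower, at a summed 40.6 to 45.6 CPM in FGF2 embryos against 54.3 to 71.2 CPM in vehicle embryos. That sum turned on Rlbp1: without it the list summed to 22.7 to 24.4 CPM in FGF2 embryos against 8.19 to 9.32 CPM in vehicle embryos. Without its 3 most abundant genes, Rlbp1, Vax1 and Mitf, the sums overlapped, at 5.51 to 8.31 CPM in FGF2 embryos and 4.84 to 5.90 CPM in vehicle embryos. The list's median log2 fold change was 0.44, and Vax1 passed the filter only with the help of the FGF2 embryos. Vax1, an optic stalk and ventral forebrain factor named after its values were seen, had 12.01, 14.3 and 11.96 CPM in FGF2 embryos against 2.19, 0.942 and 0.0317 CPM in vehicle embryos (adjusted p = 0.0958, edgeR). Of 8 pituitary and placode genes, 4 were tested and Pitx1 was higher, at a summed 12.8 to 27.5 CPM in FGF2 embryos against 6.66 to 9.33 CPM in vehicle embryos. Pitx1 was lost without each embryo but FGF2 embryo 6, with edgeR adjusted p up to 0.154. It passed the filter only with the help of the FGF2 embryos, and of the remaining 3 tested genes 0 were called. Of 8 meningeal and mesenchymal genes, Col1a1 and Col1a2 were lower, at a summed 2206 to 2479 CPM in FGF2 embryos against 3554 to 4087 CPM in vehicle embryos. The 3 collagen genes carried that sum: the other 5 genes summed to 172 to 237 CPM in FGF2 embryos against 183 to 219 CPM in vehicle embryos, and the list's median log2 fold change was -0.04. Col1a2 was lost without FGF2 embryo 7, vehicle embryo 7 or vehicle embryo 9 (edgeR adjusted p up to 0.0975). For 6 endothelial genes the count was 0 called by edgeR, DESeq2 or voom, 1 of them with an unadjusted p under 0.05 in edgeR.

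Markers of the labelled tissue were present: all 10 dorsal telencephalon genes, of which Lhx2 is also listed as a paralogue, had reads in every embryo, summing to 1835 to 2040 CPM in FGF2 embryos and to 2764 to 2955 CPM in vehicle embryos. Of these, 4 were lower in FGF2 embryos and 6 were not called. Emx1, a homeodomain factor of the dorsal telencephalon, had 96.0, 96.7 and 109 CPM in FGF2 embryos against 186, 185 and 182 CPM in vehicle embryos (log2 fold change -0.88 ± 0.08 SE, adjusted p = 0.00188, edgeR). Eomes and Neurog2, factors of neurogenic progenitors, were lower as well, with log2 fold changes of -0.91 ± 0.09 and -0.79 ± 0.13 (SE). Neurog2 was lost without FGF2 embryo 6 and without each vehicle embryo (edgeR adjusted p up to 0.0856), and 2 to 8 of the 10 genes were called when 1 embryo was left out. Total counts were 64631136 to 81532334 in the FGF2 libraries and 61489462 to 68101511 in the vehicle libraries. Every non-zero count of vehicle embryo 9 was even, against 51.0% to 51.9% in the other 5 libraries, and of its 1442 genes with 2 reads 65.1% covered only 76 bases, the length of 1 read. Alignments of that library thus look as if counted double, and with its counts halved 3 members were called.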

How the data were processed

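The submitters' processing notes name bedtools 2.12.0, Bowtie2 2.1.0.0, TopHat2 2.0.9 and CASAVA 1.8, and the genome build NCBIM37 (mm9), without saying what each tool did. The deposited counts are whole numbers of alignments over each gene's span, introns and overlapping genes included, for 37991 genes. The fraction of each span covered by reads stands beside them in the deposited files. The authors' RPKM files were joined by symbol to 34290 genes, and neither the tool behind those RPKM values nor the use of strand in counting is stated in the labels.

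The quasi-likelihood test of edgeR 4.0.16 (R 4.3.3; TMM scaling, filterByExpr, robust glmQLFit) was run on the counts as deposited over 3 FGF2 and 3 vehicle embryos, with no covariate. P-values were adjusted over 21983 genes, of which 799 were called at 0.05 (590 higher and 209 lower in FGF2 embryos). Each library is a separate embryo. With 3 embryos a group, the smallest two-sided p of an exact permutation test is 0.1, and p-values therefore come from the model across genes. CPM uses the TMM library sizes. The members and lists were chosen with earlier results of these data known. The text names the 10 members, the 3 called genes of smallest p in each direction of each of 13 lists, 3 most similar genes per tested member, and some genes it says were singled out later. Alternatives covered scaling, filters, each embryo left out, the embryo number as a block, limma 3.58.1 (voom, and log2 of RPKM + 1 or + 0.1), DESeq2 1.42.0, halved counts of vehicle embryo 9 and non-overlapping spans. Counts per list without each embryo, list sums without the most abundant genes, and the count of genes whose vehicle embryos alone would not pass the filter were added after seeing the data. The scripts were tested on simulated counts over 21664 genes. There 77 of 100 genes changed 2-fold and 99 of 100 changed 4-fold were recovered in the FGF2 comparison, with 6 false calls. The changed genes all had a mean of at least 1 CPM, and the simulated spread followed the trend over genes. Recovery was therefore not measured for changed genes with fewer reads or with a wider spread between embryos. Reads carry no molecular identifiers, so read numbers are not numbers of molecules. Promoter windows come from RefSeq (GRCm38.p6) and were not placed on NCBIM37.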

Additional observations from a re-analysis of the deposited data

How the results depend on the processing

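The fold change of each tested member stayed above 0 under every alternative in which it was tested, which were 6 members at a minimum of 1 CPM, 5 on filtered RPKM and 5 on spans that overlap no other. The number of called genes, 799 in the edgeR fit, was 2193 with limma's voom and sample weights, 2065 with DESeq2, 446 on log2(RPKM + 1), 440 on log2(RPKM + 0.1), 324 on log2(RPKM + 1) with no filter and 488 among spans that overlap no other, where 10826 genes were tested. It ran from 218, without vehicle embryo 8, to 1943, without FGF2 embryo 8, when 1 embryo was left out. The number of called members, 3, was 0 without the low-count filter, 6 with DESeq2, 1 on log2(RPKM + 1) and on log2(RPKM + 0.1), and 0 on log2(RPKM + 1) with no filter. It ran from 0 to 4 when 1 embryo was left out. Without the low-count filter the adjusted p was 0.0894 for Gbx2, 0.105 for Tcf7l2 and 0.0591 for Barhl2 (edgeR). With voom Gbx2 was lost (adjusted p = 0.0608, limma) and Pax2 was called. Of the other regional genes, 19 were called, against 30 with DESeq2, 12 on log2(RPKM + 1), 9 on log2(RPKM + 1) with no filter, and 9 to 29 when 1 embryo was left out. The cause of these shifts was not tested. Whether the embryo numbers pair the samples was not settled. Deviations of same-numbered embryos from their group means correlated at -0.04 for number 7 and -0.02 for number 8, which shows no shared deviation. Only these numbers occurred in both groups, too few to exclude a pairing. Embryo numbers 6 and 9 each occurred in 1 group only, so with the number as a replicate block the contrast rests on embryos 7 and 8 alone. That fit called 703 genes, 3 members (Gbx2, Pou4f1 and Barhl2) and 20 other regional genes, and it is no check over all 6 embryos. Read depth limits En2 and Otp, with 28 and 8 reads over all embryos.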
